A study of Mus musculus with 2 samples.

Results

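Polyamines are small, positively charged molecules, named putrescine, spermidine and spermine, that bind nucleic acids and are needed for cell growth and translation. Ornithine decarboxylase makes putrescine from ornithine, and 2 synthases then add aminopropyl groups taken from decarboxylated S-adenosylmethionine. Breakdown runs through acetylation and oxidation, and antizymes, whose own translation needs polyamines, lead ornithine decarboxylase to the proteasome. The 10 genes described here encode the enzymes of synthesis (Odc1, Amd1, Srm, Sms) and breakdown (Sat1, Smox, Paox), the antizymes (Oaz1, Oaz2) and the antizyme inhibitor (Azin1). They were taken from a transcript count table with 24532 gene IDs by matching Entrez IDs to symbols and adding up each gene's rows. The set was chosen by a known pathway with the counts of these same libraries already seen, Odc1 having stood out, so every value below is a description and carries no test. Of the 10 genes, 9 were measured, meaning at least 10 counts in the higher library, and Amd1 was not.

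RNA came from muscle stem cells, which express Pax7 and rebuild muscle fibres after injury. They were sorted from limb muscle of male C57BL/6 mice as CD31-, CD45-, Sca1- and Vcam1+ cells and were not cultured. There was 1 double-knockout (dKO) library and 1 wild-type (WT) library. The dKO mice carry Pax7-CreER, a tamoxifen-activated Cre recombinase made in Pax7-expressing cells, together with homozygous loss of Esr2 (Esr2-/-, estrogen receptor beta) and a Cre-deletable allele that is not reported here. The labels give a tamoxifen treatment at 3 months of age, 20 mg/mL by mouth on 5 consecutive days, in the records of both groups. Because Esr2-/- is not tied to the Cre, the dKO library joins a loss in all tissues with a deletion driven in Pax7-expressing cells. The sources used here do not give how many mice entered each library, or what the mark 6M in the sample titles means. With 1 library a group, the intervals below are exact 95% intervals that cover counting error only, and no difference has a replicate check.

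The dKO library held 43699831 counts and the WT library 36636680. Esr2 had 45 counts in dKO cells and 71 in WT cells, and since the deleted part of the gene is not given, these counts check nothing about the label. Levels are given as CPM, counts per mega-read of a library size scaled by TMM, a trimmed mean of gene ratios. All 12 muscle stem cell markers were measured, with a summed level of 11543 CPM in dKO cells and 8632 CPM in WT cells, 7 of them above and 5 below a log2 ratio of 0. Myod1, a regulator of muscle commitment, was the 1 marker at least 2-fold higher in dKO, with 16886 counts in dKO cells and 5396 in WT cells. Pax7, which defines these cells, had 12620 counts in dKO cells and 22335 in WT cells, and Vcam1 had 42383 in dKO cells and 23795 in WT cells. Markers of the labelled cell type were thus present in both libraries. Genes of the negative gates were detected too and were lower in dKO: Pecam1 (CD31) had 1673 counts in dKO cells and 4745 in WT cells, Ptprc (CD45) 17 in dKO and 200 in WT, and Ly6a (Sca1) 386 in dKO and 2316 in WT. Endothelial markers summed to 289 CPM in dKO cells and 647 CPM in WT cells, with 10 of 12 at least 2-fold lower in dKO and single markers between 2.80 and 119 CPM in dKO and between 7.67 and 142 CPM in WT. Immune markers summed to 34.3 CPM in dKO cells and 128 CPM in WT cells, 9 of 11 measured ones being at least 2-fold lower, and the T cell gene Cd3e was at 0 in WT. Fibro-adipogenic progenitor markers summed to 4123 CPM in dKO cells and 5323 CPM in WT cells, with 6 of 10 at least 2-fold lower. Tendon markers summed to 2078 CPM in dKO cells and 4366 CPM in WT cells, with 2 of 6 at least 2-fold lower. Mural markers summed to 2620.1 CPM in dKO cells and 2555 CPM in WT cells, with 8 of 9 below a log2 ratio of 0 and 3 at least 2-fold lower. Mature myofibre markers summed to 1044 CPM in dKO cells and 1247 CPM in WT cells, with 10 of 12 below 0, and glial markers to 259 CPM in dKO cells and 267 CPM in WT cells, with 2 of 8 below 0, and 0 of either list were 2-fold apart. Every list of other cells but the mural one thus had a lower sum in dKO. Their part in the values below was not tested, and in bulk RNA, fewer cells of a type and less RNA per cell cannot be told apart.

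One gene of the pathway, Odc1, had the highest level in both libraries and was the 1 member at least 2-fold higher in dKO cells. The 2-fold rule is a log2 ratio, dKO CPM + 1 over WT CPM + 1, of at least 1 in size. Of all 14885 measured genes, 286 (1.92%) were 2-fold higher in dKO, 640 (4.30%) were 2-fold lower and 926 (6.22%) were either, while 0 members were 2-fold lower. With library totals in place of TMM the split was 130 higher and 1040 lower, and with a trend on abundance and transcript length removed it was 306 higher and 429 lower. Since this contrast also chose the members, nothing is read from their count beside these shares. The 9 measured members had a median log2 ratio of 0.26, with 6 above 0 and 3 below, against a median of −0.02 over all measured genes, of which 7084 were above 0 and 7801 below. Under library totals the median of all genes moved by −0.22 and that of the members became 0.02. With the trend on abundance and transcript length removed, the median was 0.15 for the members and 0.006 for all measured genes.

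**Figure D1:**
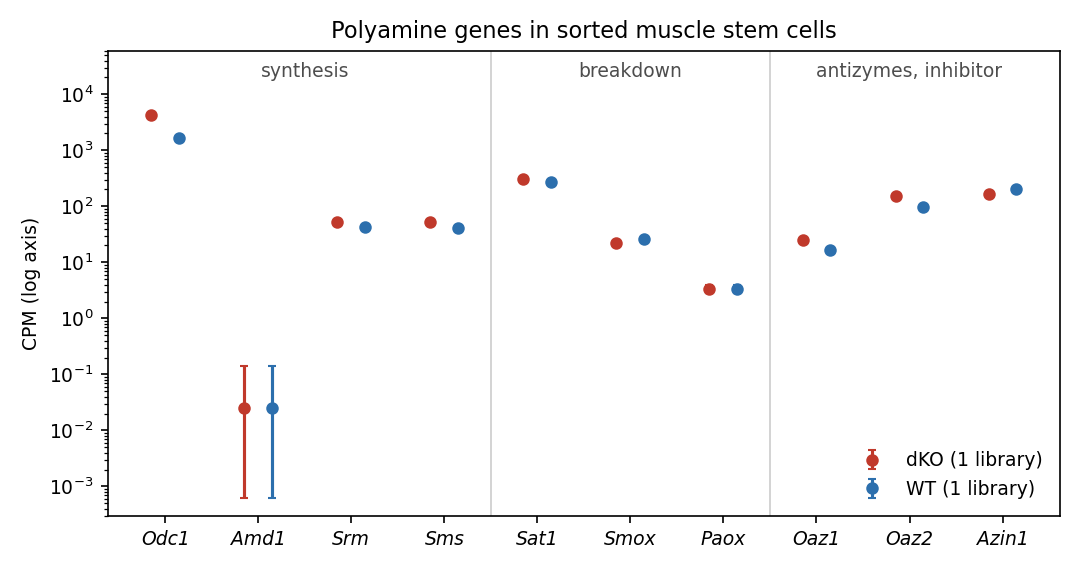
Level of the 10 polyamine genes in CPM on a log axis, in the dKO and the WT library, with 95% Poisson intervals that are often smaller than the points. Odc1 sits at 4319 CPM in dKO and 1660 CPM in WT, above all other members, and Amd1 sits at 1 count in each library.

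Odc1 encodes ornithine decarboxylase, the first and rate-limiting enzyme of the pathway, whose protein is among the shortest-lived in mammalian cells. The gene (Entrez 18263) lies on chromosome 12 from 17544808 to 17551502 on GRCm38, the build of all positions here. It had 172845 counts in dKO cells and 66411 in WT cells, all in 1 transcript row, which is 4319 CPM in dKO (4299 to 4339) and 1660 CPM in WT (1647 to 1673). The level in dKO was 2.60-fold that in WT (2.58 to 2.63), a log2 ratio of 1.38. Odc1 alone took 0.396% of all dKO counts and 0.181% of all WT counts. By CPM per kilobase of transcript it ranked 51 among the 24532 gene IDs in dKO cells and 111 in WT cells. Its log2 ratio was at or above that of 99.4% of the measured genes. Ratios followed abundance over all measured genes: the median log2 ratio was −0.16 in the lowest eighth by mean CPM and 0.29 in the highest, where Odc1 falls. With the trend on abundance and transcript length removed, Odc1 had a log2 ratio of 1.07, and it stayed above 1 in each of the 6 alternatives that can move its value. Copies of Odc1 sequence exist elsewhere: 42.2% of the 50-base windows of its longest coding GENCODE transcript occur in transcripts of 16 other genes, and the sources used here do not say how such reads were assigned.

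**Figure D2:**
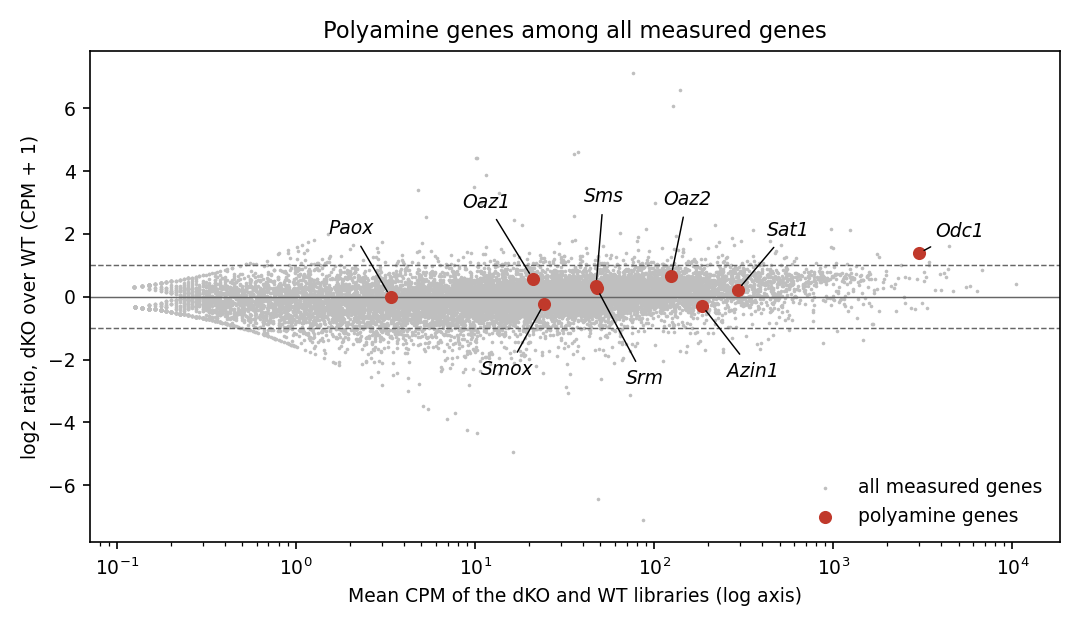
The log2 ratio of dKO over WT (CPM + 1) against the mean CPM of both libraries on a log axis, for all 14885 measured genes in grey and the 9 measured polyamine genes in red. Dashed lines mark the 2-fold rule, and Odc1, at 1.38, is the 1 polyamine gene outside them.

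The other synthesis genes differed far less than Odc1. Srm, spermidine synthase (Entrez 20810, chromosome 4, 148591513 to 148594619), had 2088 counts in dKO cells and 1731 in WT cells, or 52.2 CPM and 43.3 CPM, a ratio of 1.21 (1.13 to 1.29). Sms, spermine synthase (Entrez 20603, chromosome X, 157443851 to 157492287), had 2126 counts in dKO cells and 1656 in WT cells, or 53.1 CPM and 41.4 CPM, a ratio of 1.28 (1.20 to 1.37). Both log2 ratios, 0.26 for Srm and 0.35 for Sms, stood within the 2-fold lines, and under library totals they were 0.02 and 0.10. Per kilobase of transcript, the level of Odc1 was 43.2 times that of Srm in dKO cells and 20.0 times that of Srm in WT cells. Odc1 made up 78.2% of the summed CPM per kilobase of the 10 genes in dKO cells, against 62.3% in WT cells. The summed level of the other 9 genes was 472 CPM per kilobase in dKO cells and 395 CPM per kilobase in WT cells. These sums leave out the near-identical copies Amd2 and Oaz1-ps. With these copies added, the other 9 genes summed to 1154 CPM per kilobase in dKO cells and 801 in WT cells. Odc1 then made up 59.5% in dKO and 44.9% in WT. Counts on other genes that share sequence with the remaining members, Odc1 included, were not added.

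Amd1 encodes S-adenosylmethionine decarboxylase, which supplies the aminopropyl groups for both synthases (Entrez 11702, chromosome 10, 40287458 to 40302188). It had 1 count in dKO cells and 1 in WT cells, so no fold is given. Its copy Amd2, a separate annotated gene on chromosome 10 (35708691 to 35711891), had 5550 counts in dKO cells and 4483 in WT cells, or 139 CPM and 112 CPM. In GENCODE M21, 3188 of 3198 aligned bases are identical between the Amd1 and Amd2 transcripts, and 86.1% of the 50-base windows of Amd1 occur in Amd2. The stretches below show why the 2 genes are hard to separate by reads. They hold the 1 base that differs within the reading frame of Amd1, in capitals, and are given 5′ to 3′ in the sense of the transcript.
Amd1, chr10:40290157-40290216, minus strand: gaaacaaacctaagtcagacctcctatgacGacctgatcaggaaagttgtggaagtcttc
Amd2, chr10:35710735-35710794, minus strand: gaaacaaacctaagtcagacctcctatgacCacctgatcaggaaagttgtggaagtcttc
Counted as 1 gene, an alternative chosen after seeing the data, they had 5551 counts in dKO cells and 4484 in WT cells, a ratio of 1.24 (1.19 to 1.29) and a log2 ratio of 0.31. Of these counts, Amd2 held 99.982% in dKO cells and 99.978% in WT cells. Which locus the RNA came from cannot be told from the table.

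The antizymes were higher in dKO cells, by less than the 2-fold rule. Antizymes bind ornithine decarboxylase and also hold back polyamine uptake. Oaz2 (Entrez 18247, chromosome 9, 65676548 to 65690300) had 6113 counts in dKO cells and 3830 in WT cells, or 153 CPM and 95.7 CPM, a ratio of 1.60 (1.53 to 1.66). Its log2 ratio of 0.67 was 0.35 once the trend on abundance and length was removed and 0.42 under library totals. Oaz1 (Entrez 18245, chromosome 10, 80826656 to 80829290), known as the most widely expressed antizyme gene, had 1010 counts in dKO cells and 664 in WT cells, or 25.2 CPM and 16.6 CPM. The ratio was 1.52 (1.38 to 1.68), a log2 ratio of 0.58.

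As with Amd1, most counts of the Oaz1 sequence stood on a copy. The pseudogene Oaz1-ps (chromosome 17, 17345242 to 17346204), annotated by RefSeq as transcribed, had 24593 counts in dKO cells and 14292 in WT cells, or 615 CPM and 357 CPM, a ratio of 1.72 (1.69 to 1.76). In the GENCODE transcripts, 680 of 681 aligned bases are identical between Oaz1 and Oaz1-ps, and 52.2% of the 50-base windows of Oaz1 occur in the copy. The GENCODE transcript of the copy has 685 bases, against 962 in the counted row. Not all of the counted row was thus compared, and it may share more of Oaz1 than these values show. The windows below hold the site at which antizyme translation shifts its frame: the stop codon of the first frame, in capitals, is passed over when polyamines are abundant. They are shown because Oaz1 and its copy cannot be told apart there.
Oaz1, chr10:80828265-80828324, plus strand: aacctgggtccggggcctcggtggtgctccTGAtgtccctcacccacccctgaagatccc
Oaz1-ps, chr17:17345907-17345966, minus strand: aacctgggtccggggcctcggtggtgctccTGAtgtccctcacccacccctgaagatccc
Oaz2, chr9:65686242-65686301, plus strand: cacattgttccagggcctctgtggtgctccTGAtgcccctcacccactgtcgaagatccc
Oaz1 and Oaz1-ps match at 60 of these 60 bases, and Oaz1 and Oaz2 at 49. Counted together, an alternative chosen after seeing the data, Oaz1 and Oaz1-ps had 25603 counts in dKO cells and 14956 in WT cells, a ratio of 1.71 (1.68 to 1.75) and a log2 ratio of 0.77. The copy held 96.1% of them in dKO cells and 95.6% in WT cells. For Oaz1-ps alone the log2 ratio was 0.78, against 0.53 with library totals as sizes and 0.19 after removal of the trend. These alternatives were not tested on the pair. Per kilobase, the pair then reached 662 in dKO cells and 387 in WT cells on the CPM scale, against 23.6 and 15.5 for the Oaz1 rows alone in dKO and WT cells.

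**Figure D3:**
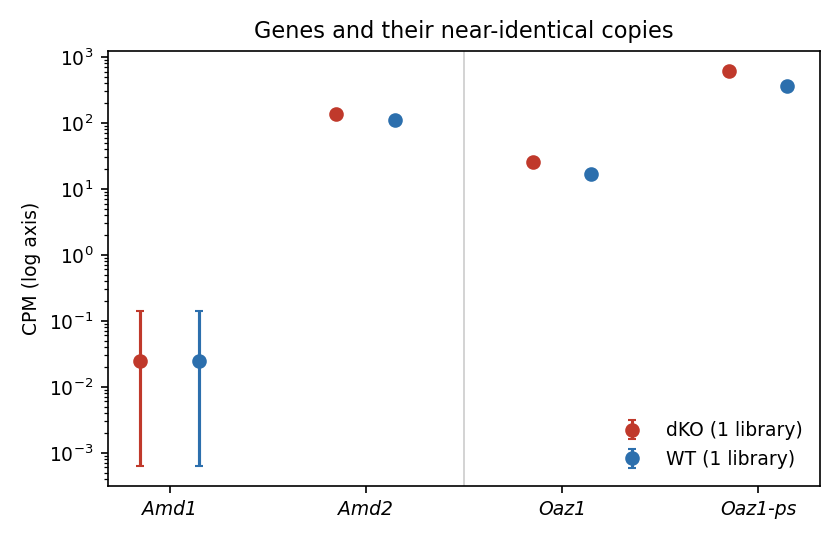
CPM on a log axis of Amd1 and Oaz1 and of their near-identical copies Amd2 and Oaz1-ps, in the dKO and the WT library, with 95% Poisson intervals. Counts placed on the copies came to 139 CPM (Amd2) and 615 CPM (Oaz1-ps) in dKO and to 112 CPM and 357 CPM in WT. These lie far above the counts placed on the genes they copy, and the locus of origin cannot be told.

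Azin1, the antizyme inhibitor, resembles ornithine decarboxylase without its activity and draws antizymes away from the enzyme (Entrez 54375, chromosome 15, 38487430 to 38519294). It had 6646 counts in dKO cells and 8126 in WT cells, or 166 CPM and 203 CPM, and was 1.22-fold lower in dKO (1.18 to 1.26), a log2 ratio of −0.29. It was below 0 in all 6 alternatives that can move its value. Per kilobase, the level of Azin1 was 0.405 times that of Oaz2 in dKO cells and 0.793 times that of Oaz2 in WT cells. Odc1 stood at 50.5 times the Azin1 level in dKO cells and at 15.8 times in WT cells.

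Of the breakdown genes, Sat1 was the most abundant. It encodes spermidine/spermine N1-acetyltransferase, which marks polyamines for export or oxidation (Entrez 20229, chromosome X, 155213126 to 155216449). Sat1 had 12503 counts in dKO cells and 10822 in WT cells, or 312 CPM and 271 CPM, a ratio of 1.15 (1.13 to 1.19). Its log2 ratio of 0.21 was below the median of its eighth by abundance, 0.29, and its sign turned when library totals replaced TMM (−0.05) and when the trend was removed (−0.31), so no direction can be given. Smox, spermine oxidase (Entrez 228608, chromosome 2, 131491858 to 131525183), had 884 counts in dKO cells and 1048 in WT cells, or 22.1 CPM and 26.2 CPM, and was 1.19-fold lower in dKO (1.08 to 1.30). Smox was also the 1 member with no 50-base window in a transcript of another gene. Paox, which oxidises acetylated polyamines in peroxisomes (Entrez 212503, chromosome 7, 140115735 to 140134334), had 134 counts in dKO cells and 135 in WT cells, or 3.35 CPM and 3.37 CPM. At this depth the ratio of Paox lay between 0.775 and 1.27.

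Set in order of CPM per kilobase, Odc1 led in both libraries with 1696 in dKO cells and 652 in WT cells, followed by Sat1 with 263 in dKO cells and 226 in WT cells and Oaz2 with 82.8 in dKO cells and 51.9 in WT cells. The next places were exchanged: Srm (39.3) stood above Azin1 (33.6) in dKO cells, and Azin1 (41.2) above Srm (32.6) in WT cells. Oaz1 came next in both libraries. Sms (15.7) stood above Smox (11.4) in dKO cells, and Smox (13.4) above Sms (12.3) in WT cells. Paox was lowest but for Amd1, with 2.04 in dKO cells and 1.94 in WT cells. These places depend on where reads of copied sequence were counted, so that of Oaz1 and Amd1 would change with their copies added. Together with its copy, Oaz1 would stand next to Odc1, whose level was 2.56 times that of the pair in dKO cells and 1.68 times in WT cells. Counts on genes that share sequence with Odc1 were not added to Odc1 here.

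Several members had more than 1 transcript row, and the division of counts among rows differed between the libraries. Rows of 1 gene can share bases, and the sources used here do not say how reads common to several rows were assigned. The intervals of row counts and shares leave out error from that assignment. Of 4078 genes with several rows and at least 100 counts in each library, 47.1% had at least 10 percentage points of their counts on other rows in dKO than in WT, and the median was 8.94 points. Among the 6 such members, Azin1 (19.0 points), Smox (18.3 points) and Oaz1 (11.7 points) passed 10 points, while Paox (9.70 points), Sat1 (8.79 points) and Oaz2 (0.0755 points) did not. Shifts of the size of Azin1 or larger were seen in 29.5% of the genes and those of the size of Smox or larger in 30.4%, so such shifts were common.

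In Azin1, the row of 4868 bases had 1844 counts in dKO cells and 3799 in WT cells, or 27.7% of the gene in dKO and 46.8% in WT. The other 3 rows had 509, 2177 and 2116 counts in dKO cells and 326, 2144 and 1857 counts in WT cells. The lower gene total in dKO thus lay in 1 row, and taken alone as the value of the gene, that row gave a log2 ratio of −1.04, past the 2-fold line. In Smox, the main row of 2172 bases had 494 counts in dKO cells and 712 in WT cells. The Smox row of 1764 bases had 182 counts in dKO cells and 33 in WT cells and was 5.51-fold higher in dKO (3.79 to 8.25), against the direction of the gene.

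Sat1 has a known second form in which an extra exon brings an early stop and the RNA is removed by nonsense-mediated decay, a switch that polyamines are known to control. The 2 deposited Sat1 rows, of 1168 and 1278 bases, differ by 110 bases, as do the coding and the decay transcript in GENCODE M21, which are identical apart from an exon of 110 bases. The table names no transcripts, so this match rests on length. The exon is printed with the first stop codon of the Sat1 reading frame in capitals. That codon starts at base 12 of the exon and cuts the frame to 216 bases, against 516 in the coding transcript.
Sat1 extra exon, chrX:155215121-155215230, minus strand: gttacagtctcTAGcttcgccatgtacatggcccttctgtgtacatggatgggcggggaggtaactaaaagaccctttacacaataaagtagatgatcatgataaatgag
The longer row had 2304 counts in dKO cells and 2945 in WT cells, which is 18.4% of Sat1 in dKO (17.8 to 19.1) and 27.2% in WT (26.4 to 28.1), by the exact Clopper-Pearson method. The shorter row had 10199 counts in dKO cells and 7877 in WT cells, a ratio of 1.29 (1.26 to 1.33), and the longer row was 1.28-fold lower in dKO (1.21 to 1.35). The 2 intervals of the longer row's share did not overlap, yet 50.5% of the genes with several rows had a shift at least as large. Since these intervals leave out how reads common to both rows were assigned, they do not give the full error of the share.

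**Figure D4:**
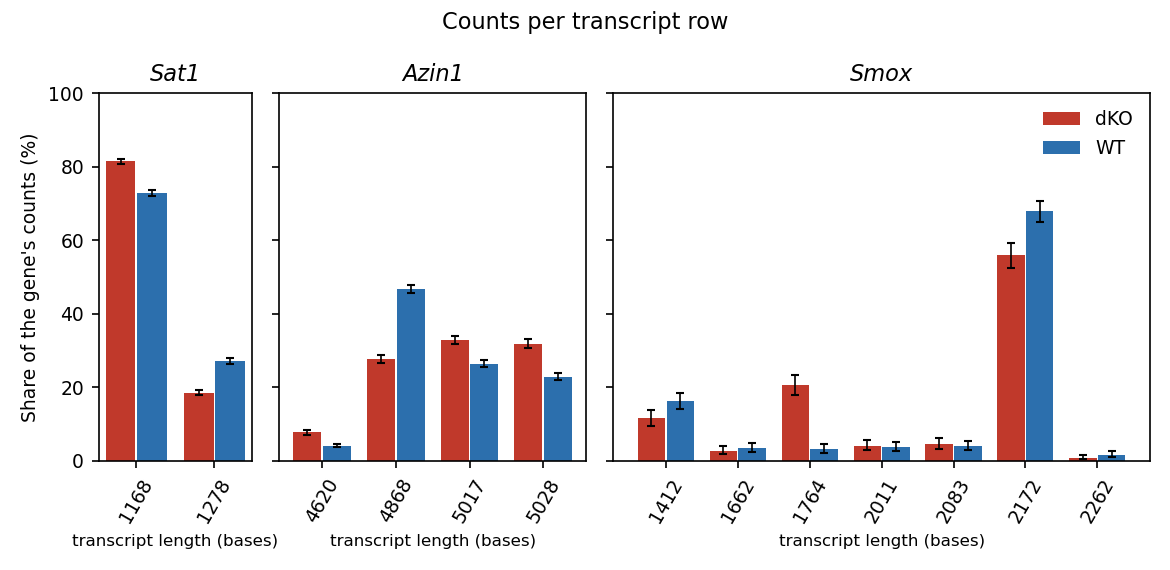
Share of a gene's counts, in percent, on each of its transcript rows (named by length in bases) for Sat1, Azin1 and Smox in the dKO and the WT library, with exact 95% binomial intervals. The Sat1 row of 1278 bases and the Azin1 row of 4868 bases took smaller shares in dKO, and the Smox row of 1764 bases a larger one; Smox rows with 0 counts in both libraries are left out.

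Genes around the pathway were taken from 6 further lists, which held 38 measured genes. Of these, 2 were 2-fold higher in dKO and 0 were 2-fold lower, beside 1.92% higher and 4.30% lower among all measured genes. Among 4 genes of hypusine formation, a modification in which spermidine is used to activate a translation factor, the factor itself, Eif5a, was 2.09-fold higher (2.06 to 2.12). Eif5a had 55767 counts in dKO cells and 26716 in WT cells, and its log2 ratio of 1.06 was 0.81 with library totals as sizes and 0.51 after removal of the trend, both short of the 2-fold line. The list had a median of 0.23, which was −0.01 with library totals, and Dohh, which completes the modification, stood at 0.42. Among 10 regulators of ornithine decarboxylase, Myc, a transcription factor known to bind and activate Odc1, was 2.05-fold higher (2.01 to 2.09). Myc had 31764 counts in dKO cells and 15513 in WT cells, and its log2 ratio of 1.03 was 0.78 with library totals as sizes and 0.58 after removal of the trend. The regulator list had a median of 0.07, which was −0.15 with library totals, and Zfp36, a factor of mRNA decay, stood at −0.20.

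In substrate supply, recycling and transport, 0 of 21 measured genes were 2-fold apart, beside 6.22% of all measured genes, a share at which few would be met in so short a list. Of 10 genes of arginine and methionine supply, 7 were measured, and their median log2 ratio was −0.18. Mat2a, which makes S-adenosylmethionine, had 1363 CPM in dKO cells and 1203 CPM in WT cells, and Oat, which converts ornithine in mitochondria, had 355 CPM in dKO cells and 287 CPM in WT cells. The 5 genes that recycle methylthioadenosine, the by-product of both synthases, had a median of −0.11, with values of −0.10 for Mtap and 0.56 for Mri1. The 11 transport genes included 9 measured ones with a median of 0.10, whose sign turned with library totals (−0.15) and with the trend removed (−0.05). Slc3a2, the heavy chain of amino acid exchangers, had 374 CPM in dKO cells and 204 CPM in WT cells, and Atp13a3, a polyamine transport ATPase, had 372 CPM in dKO cells and 250.2 CPM in WT cells. Among 7 paralogues and lesser known enzymes, 3 were measured, with a median of 0.22. Azin2, the second antizyme inhibitor gene, had 200 counts in dKO cells and 279 in WT cells, and the testis antizyme gene Oaz3 had 2 in dKO cells and 0 in WT cells. The genes Agmat, Aoc1 and Satl1 were at 0 counts in both libraries.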

How the data were processed

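The authors deposited 1 table of raw read counts whose rows are transcripts, labelled by Entrez ID and length, per the file headers. TopHat2 2.0.9, bedtools and edgeR and the mm10 build are named, with no role or order, per the submitters' processing notes. The sources used here do not state the counting rule, annotation, read length or strand setting, so overlapping or antisense genes and near-identical copies may share reads. The 36780 rows were added up for 24532 gene IDs, of which 24462 matched a symbol in RefSeq on GRCm38, the assembly that mm10 names.

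Library sizes were scaled by TMM in edgeR 4.0.16 (R 4.3.3), with factors of 0.916 for dKO and 1.09 for WT. The 95% intervals are exact Poisson, conditional binomial or Clopper-Pearson ones (scipy 1.17.1) and leave out all but counting error, since reads copied by PCR are not separate molecules. Genes whose higher library had 10 or more counts were called measured. CPM per kilobase adds up a gene's rows, each divided by its length. The trend was a cubic fit of the log2 ratio on abundance and transcript length over all measured genes. Transcript sequences and exons are from GENCODE M21 (GRCm38), and windows of 50 bases were matched on both strands. The antizyme sites were read from transcripts that keep the shifted base. The log2 ratios, the 2-fold rule, the removal of the trend and the interval of the ratio were run on simulated Poisson counts. TMM scaling, row shares and sequence matching were not part of that run.

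The members and lists were chosen with earlier results of these data known. All 10 members were named, and of each further list its members 2-fold apart and its 2 most abundant ones. Agmat, Aoc1, Satl1 and Oaz3, and the copies of Amd1 and Oaz1, were named after their values were seen. Alternatives were median-ratio scaling (DESeq2 1.42.0), library totals, the main row in place of the sum, pseudocounts of 0.1 and 5 in place of 1, no count minimum or 100, 1.5-fold and 4-fold rules and the removal of the trend.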

Additional observations from a re-analysis of the deposited data

How the results depend on the processing

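Odc1 was the 1 member at least 2-fold higher in dKO in every setting tried but the other size rules: with a 1.5-fold rule there were 2 (Odc1 and Oaz2) and with a 4-fold rule 0. The log2 ratio of Odc1 ran from 1.07 to 1.39 over the 6 alternatives that can move it (scaling, main row, pseudocounts and trend). With the main row in place of the sum, 1 member, Azin1, was 2-fold lower (−1.04). The count of all genes 2-fold higher was 130 with library totals, 474 with main rows, 698 and 154 with pseudocounts of 0.1 and 5, and 1336 and 25 with the 1.5-fold and 4-fold rules. The count of all genes 2-fold lower was 1040 with library totals, 936 with main rows, 1653 and 187 with those pseudocounts, and 1955 and 56 with those rules. The cause was not tested for main rows and totals; the pseudocounts and size rules move the counts by construction. Srm, Sms, Oaz2, Azin1 and Smox kept their sign in these 6, Oaz1 in 7 with the addition of its copy, Sat1 in 4 and Paox in 5. Depth limits Paox, 1 count being 0.0250 CPM in each library; for Amd1 the locus cannot be told, since its copy holds 99.982% of their joint counts in dKO and 99.978% in WT. No paired analysis was possible because each group has 1 library, and no library could be left out.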
